A study of Mus musculus with 4 samples.

Results

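The neural crest and branchial arch genes described here are 32 genes named by symbol: 12 of the neural plate border and of crest specification, 5 of the glial and other crest lineages, and 15 of arch patterning. All probe sets with 1 of these symbols as their only gene in the platform annotation were taken, which gave 57 probe sets for 31 of the 32 genes, out of 45037 probe sets and 18193 genes tested. The remaining gene, Ednra, was not analysed here. Expression was measured on Affymetrix arrays in whole mouse embryos at embryonic day 9.5. One group lacked Cop1, which encodes an E3 ubiquitin ligase acting on transcription factors such as JUN and the ETV family, and the other group was a mixture of wild-type (+/+) and heterozygous (+/-) embryos. RNA of 6 embryos per group was pooled, and the pool was divided into 2 portions with 1 array each. The 2 arrays of a group are therefore portions of the same RNA, and every p-value below measures the spread between portions, not between embryos. The labels give neither the Cop1 allele, the strain nor the share of heterozygotes.

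The neural crest arises at the border of the neural plate, where AP-2 factors, Pax3 and Zic genes are active. Its cells then switch on specifier genes such as Foxd3, Sox9, Snai2 and Sox10, leave the neural tube and migrate. In the head they fill the branchial arches, where endothelin 1 from the arch epithelium acts on the receptor Ednra in crest mesenchyme and a nested code of Dlx genes sets the identity of upper and lower jaw. The crest also gives rise to Schwann cells, sensory and autonomic neurons, enteric neurons and pigment cells. Sox10, the neuregulin receptor Erbb3 and the receptors Ednrb and Ret are among the best known genes of these lineages. Several of these genes also serve other tissues of the embryo, so that a value in whole-embryo RNA is not a value for crest cells. In such RNA, fewer cells of a type and less RNA per cell cannot be told apart.

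The values are log2 expression made with RMA, and a difference of 1 is a factor of 2. The arrays had medians of 6.03 to 6.10. Cop1 read 11.35 and 11.26 in the control portions and 9.67 and 9.77 in the null portions, a difference of -1.58 (SE 0.08, limma, adjusted p = 0.000728). Where its only probe set lies relative to the deletion is not known here, so this does not measure the loss of the deleted part. Of 12 genes listed as marks of heart, blood, neural tube, somites, vessels, epithelium and gut, 11 were measured, and they read from 7.42 for Cdh5 to 14.39 for Hbb-bh1. Of these Krt18 rose (0.87) and Afp fell (-1.01). A gene was called risen or fallen where its adjusted p was under 0.05 and its difference was at least 1.5-fold, with 1 probe set standing for a gene.

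Among the 31 measured crest and arch genes 2 rose and 4 fell. These 6 genes are 19.4% of the set, while 11.6% of all genes were called, 3.58% as rises and 8.06% as falls. The fallers were the AP-2 gene Tfap2b and the arch genes Dlx1, Eya1 and Gsc, and the risers were the ligand gene Edn1 and the specifier Snai2. No share of the set is read as particular to it, since the members were chosen with earlier results of these data known. The median difference over the set was -0.02, the same to 2 decimals as the -0.02 over all genes, and the values ran from -1.29 to 0.67. An adjusted p under 0.05 without the fold limit was reached by 16 of the 31 genes, against 33.9% of all genes, in 7 cases with a higher and in 9 with a lower value in the null pool. For 21 genes (67.7%) the values of the pools did not overlap, close to the 68.2% of all genes.

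**Figure D1:**
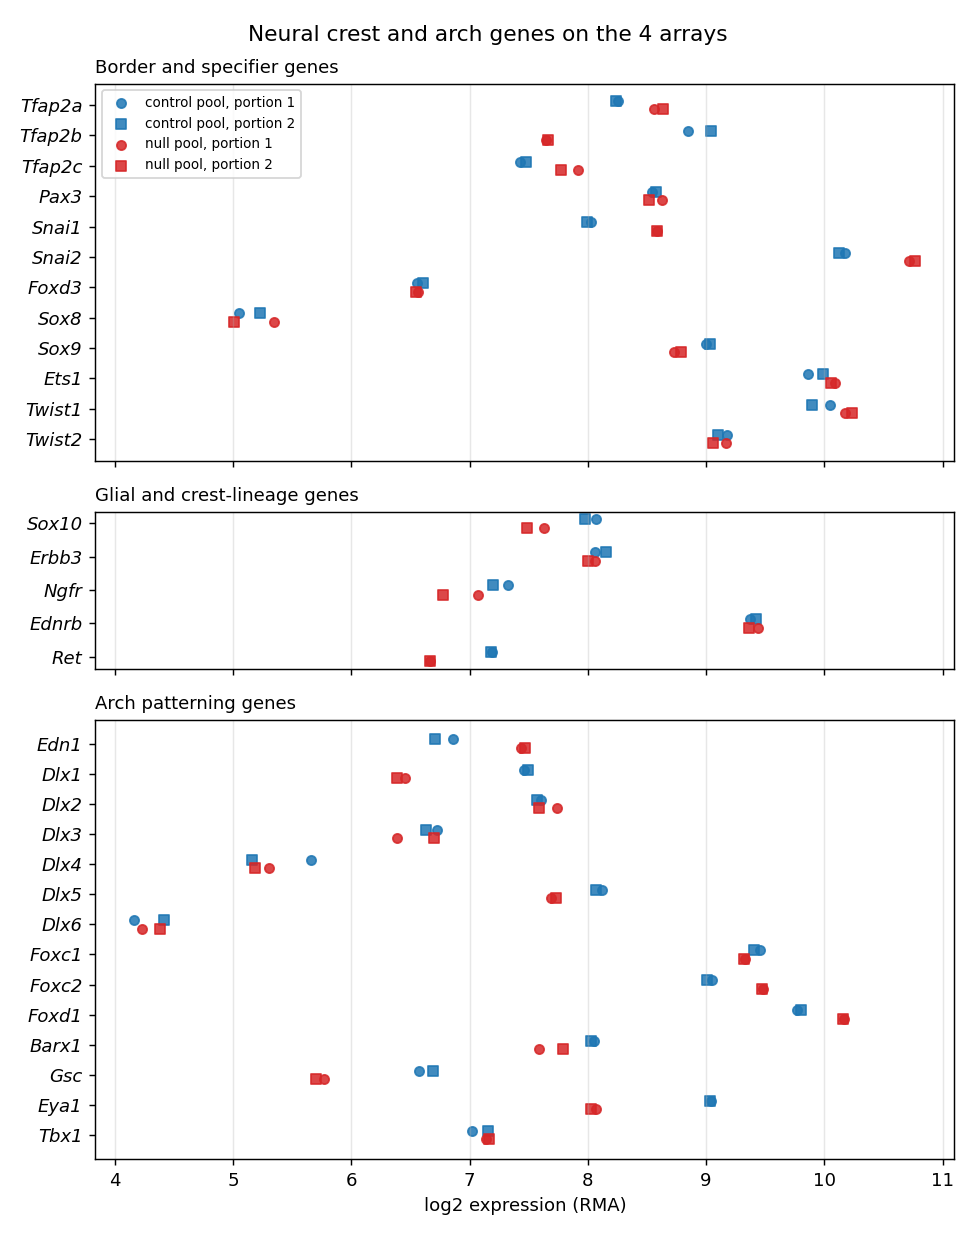
Log2 expression (x axis) of the 31 measured crest and arch genes (rows), with 1 probe set a gene, on the control arrays (blue) and the null arrays (red); circles are portion 1 and squares portion 2. The null points of Tfap2b, Dlx1, Eya1 and Gsc lie to the left of their control points, and those of Edn1 and Snai2 to the right.

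Portions of one pool lay close together. The median gap between the control portions over the 31 genes was 0.05 log2 units and that between the null portions 0.06. The widest gaps were 0.50 between the control portions of Dlx4 and 0.33 between the null portions of Sox8, both of which read below the array medians.

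The border and specifier genes had 1 rise and 1 fall among 12, with a median difference of 0.09 that turned to -0.14 with arrays centred on the probe sets for poly-A spike controls, a scaling that took the median over all genes from -0.02 to -0.26. Within the AP-2 family of transcription factors, which act in the neural plate border, the surface ectoderm and the crest, the members differed in sign. Tfap2b (probe set 1435670_at) read 8.85 and 9.04 in the control portions and 7.64 and 7.66 in the null portions. The null values lay far below the control values without overlap, and the gene fell by 1.29 on the log2 scale, 2.45-fold (SE 0.09, limma, adjusted p = 0.00121). Its other probe set read 7.35 and 7.41 in the control and 7.54 and 7.71 in the null portions, a difference of 0.25 without a call, so the fall of Tfap2b rests on 1 of 2 probe sets. The mean of both differed by -0.52, under the fold limit.

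Tfap2a, the AP-2 gene needed for facial closure in mouse, read 8.25 and 8.24 against 8.56 and 8.63, the null values being higher without overlap. Its difference of 0.35 lay under the fold limit (SE 0.07, limma, adjusted p = 0.0159), and its other probe sets gave -0.05 and -0.17. Tfap2c, which is known for its role in early ectoderm and germ cells, was the only AP-2 gene with the same sign in every probe set, at 0.39, 0.25 and 0.42. All null values of these 3 probe sets lay above the control values, and none reached 1.5-fold.

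The Snail genes encode zinc-finger repressors that lower cell adhesion as crest cells leave the neural tube. Snai2, also called Slug, read 10.17 and 10.12 in the control portions and 10.72 and 10.77 in the null portions. The null values lay higher without overlap, and Snai2 rose by 0.60, 1.51-fold (SE 0.06, limma, adjusted p = 0.00354). This probe set, 1447643_x_at, carries the suffix that Affymetrix gives to sets whose probes can match other transcripts, and the other probe set of Snai2 gave 0.45 (adjusted p = 0.0299) without reaching the fold limit. Snai1 read 8.02 and 7.99 in the control portions and 8.58 and 8.58 in the null portions. Its difference of 0.578, or 1.49-fold, had an adjusted p of 0.00335 (limma) and lay just under the fold limit of 0.585 log2 units, while that of Snai2, 0.597, lay just above it. Snai2 also lost its call without control replicate 2 (0.57) and without null replicate 2 (0.57), and Snai1 gained one without control replicate 1 (0.59).

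Most of the other specifier genes differed little between the pools. Foxd3, a forkhead factor of premigratory crest, read 6.56 and 6.61 against 6.56 and 6.55, with overlapping values. Pax3, the paired box gene of the dorsal neural tube, the crest and the somites, gave 0.01 by the probe set that stands for it and 0.38 and 0.42 by the other probe sets, whose null values were all higher without a call. Sox9, an HMG-box factor of crest and cartilage precursors, read 9.00 and 9.03 against 8.73 and 8.78, a difference of -0.26 (SE 0.06, limma, adjusted p = 0.0354), and its other probe sets gave -0.11 and 0.09. Sox8, its relative, read between 5.01 and 5.34 on the 4 arrays with overlapping pools.

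Ets1, an ETS factor of cranial crest and of endothelium, had 4 probe sets, all with higher null values and no overlap. The one that stands for the gene gave 0.15, or -0.08 with poly-A centring, while 1422027_a_at read 7.29 and 7.30 against 7.95 and 8.07 and rose by 0.72 (SE 0.07, limma, adjusted p = 0.00284). The remaining ones gave 0.46 and 0.24. Of 10 listed endothelial genes 5 were not called and 5 rose, led by Flt1 (1.80), Sox17 (1.23), Kdr (0.74) and Pecam1 (0.72); their median difference was 0.53, and their mean level was 7.76 to 7.78 in the control and 8.39 to 8.41 in the null portions. The part of endothelium in the values of Ets1 was not tested. The bHLH genes Twist1 and Twist2, which act in head and arch mesenchyme, gave 0.23 (adjusted p = 0.0922, limma) and -0.02.

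**Figure D2:**
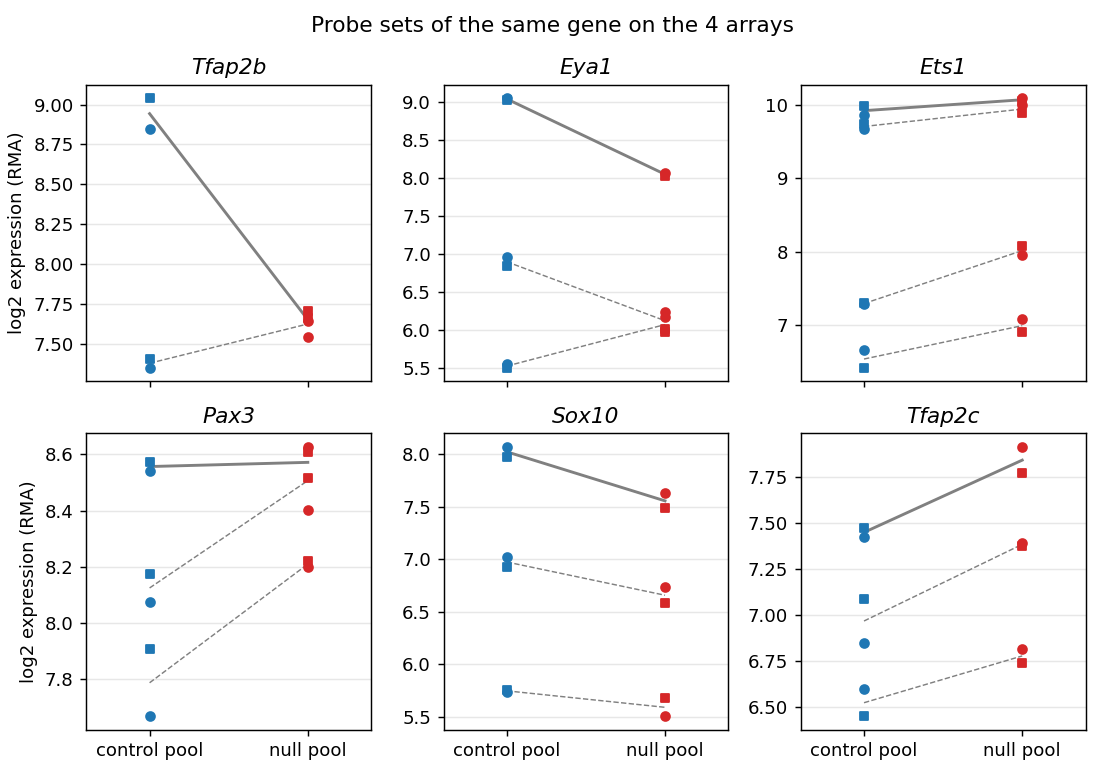
Log2 expression (y axis) of every probe set of 6 genes in the control pool (blue) and the null pool (red), with circles for portion 1 and squares for portion 2; lines join pool means, solid for the probe set that stands for the gene and dashed for the others. Within Tfap2b and within Eya1 the lines run in both directions, whereas those of Ets1, Sox10 and Tfap2c run the same way.

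Of the 5 glial and crest-lineage genes 0 were called by limma's adjusted p and the fold limit. An adjusted p under 0.05 was reached by 2 of them, Sox10 and Ret, against 33.9% of all genes. An unadjusted p under 0.05 was reached by 3 of the 5, against 8059 of all 18193 genes. The median difference of the 5 genes was -0.34. Sox10, the HMG-box factor that keeps crest cells multipotent and drives them towards glia and pigment cells, read 8.07 and 7.98 in the control portions and 7.63 and 7.49 in the null portions. The null values were lower without overlap, a difference of -0.47 or 1.38-fold (SE 0.08, limma, adjusted p = 0.0132). The other probe sets of Sox10 gave -0.32 and -0.16, also with lower null values throughout.

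Ret, the GDNF receptor kinase of enteric crest cells and also of the early kidney duct, read 7.19 and 7.18 against 6.67 and 6.67. The null values were identical in every digit, and this SD of 0 entered the SE. They lay lower without overlap, at a difference of -0.52 (SE 0.06, limma, adjusted p = 0.00422), yet the other probe set of Ret gave 0.04 with overlapping values. Ret passed the fold limit with poly-A centring (-0.76) and with median centring (-0.59), and Sox10 with poly-A centring (-0.70). These scalings also lowered the median difference over all genes, to -0.26 and -0.09. Ngfr, the p75 neurotrophin receptor used to sort crest cells, read 7.33 and 7.20 against 7.07 and 6.77 (difference -0.34, adjusted p = 0.0959, limma), and its other probe sets gave 0.11 and -0.01. Erbb3, the neuregulin receptor of Schwann cell precursors, gave -0.08 and 0.04. For Ednrb, the receptor of endothelin 3 in pigment and enteric precursors, the probe sets gave 0.00, -0.04 and -0.39, the last with an adjusted p of 0.0183 (limma).

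The glial genes share ganglia with neurons. Of 12 listed genes of sensory placodes and ganglia 9 were measured, of which 5 fell and 1, the neurotrophin receptor gene Ntrk3 (0.59, named after its value was seen), rose, with a median of -0.59. Their mean level ran from 8.22 to 8.25 in the control and from 7.58 to 7.65 in the null portions, and none of them read below 5.51 on any array. Neurog1 (-1.58) and Neurod1 (-1.29), which drive neuron formation in the cranial ganglia, Stmn2 (-0.92), a gene of growing axons, and Pou4f1 (-0.78), a sensory neuron factor, fell furthest, and the other probe sets of Neurog1 and Stmn2 gave -0.55 and -0.54 without a call. The part of neurons in the values of Sox10, Ret and Ngfr was not tested.

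The arch patterning genes held 1 rise and 3 falls among 14, with a median difference of -0.12. The rise was that of Edn1 (1451924_a_at), the ligand that sets the lower-jaw programme. It read 6.86 and 6.70 in the control portions and 7.43 and 7.47 in the null portions, higher in both null portions without overlap. The difference was 0.67 or 1.59-fold (SE 0.08, limma, adjusted p = 0.00442). With arrays centred on the poly-A spikes, Edn1 differed by 0.44 (adjusted p = 0.0585) and Snai2 by 0.36 (adjusted p = 0.128), and neither was called. Edn1 is also made by endothelium, of whose 10 listed genes 5 rose as given above, and its part in this value was not tested.

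Gsc, Dlx5 and Dlx6 are known to depend on endothelin signalling in the mouse arch, and of these Gsc fell. Gsc (1421412_at), a homeobox gene of lower-jaw mesenchyme, read 6.57 and 6.69 in the control portions and 5.77 and 5.70 in the null portions. The null values lay lower without overlap, and Gsc fell by 0.90 on the log2 scale, 1.87-fold (SE 0.07, limma, adjusted p = 0.00187). Dlx5, a lower-arch Dlx gene, read 8.12 and 8.07 against 7.68 and 7.73, a difference of -0.38 (SE 0.06, limma, adjusted p = 0.0118) that lay under the fold limit. Its partner Dlx6 read between 4.16 and 4.41 on the 4 arrays, below the lower quartile of every array except for the second control portion, and its pools overlapped. Barx1, a homeobox gene of jaw and tooth mesenchyme, read 8.06 and 8.02 against 7.59 and 7.79 (difference -0.35, adjusted p = 0.0387, limma).

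The 6 Dlx genes lie in the genome as linked pairs, Dlx1 with Dlx2, Dlx3 with Dlx4 and Dlx5 with Dlx6. Dlx1 (1449470_at) read 7.46 and 7.49 in the control portions and 6.45 and 6.38 in the null portions. The null values lay lower without overlap, and Dlx1 fell by 1.06 on the log2 scale, 2.08-fold (SE 0.07, limma, adjusted p = 0.00104). Dlx2, which acts with Dlx1 in the upper jaw and the forebrain, read 7.60 and 7.57 against 7.74 and 7.59 and overlapped, at a difference of 0.08 (SE 0.08). Whether these partners differ in their change was not tested. Dlx3 gave -0.13 and 0.13 by its probe sets, and Dlx4 gave -0.17 and -0.35, the last from a probe set that read 4.16 to 4.61. Genes of forebrain inhibitory neurons, which also use Dlx1 and Dlx2, held 2 falls among 6 measured genes. Of these, Gad1 and Gad2 read from 4.34 to 5.89, all below the array medians, and the falls were those of Lhx8 (-1.46) and Lhx6 (-0.69), LIM homeobox genes that also mark the mesenchyme of the first arch. The other probe set of Lhx6 gave -0.21 without a call. Lhx8 and Lhx6 are counted again, by the same probe sets, among the other arch genes below.

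Eya1, a transcriptional coactivator of the arches, the ear placode and the kidney, fell by the probe set that stands for it and by another. The first, 1457424_at, read 9.04 and 9.03 in the control portions and 8.07 and 8.02 in the null portions, lower without overlap, and fell by 0.99 on the log2 scale, 1.99-fold (SE 0.06, limma, adjusted p = 0.00109). A further probe set, 1421727_at, read 6.96 and 6.84 against 6.23 and 6.01 and fell by 0.77 (adjusted p = 0.00569, limma). The third, 1443117_at, ran the other way, with 5.55 and 5.51 against 6.17 and 5.97, a difference of 0.55 (adjusted p = 0.011, limma) under the fold limit. Averaged over these probe sets, Eya1 differed by -0.41 and was not called. Over all 57 probe sets of the set, 3 rose and 5 fell, 14.0% against 13.7% of all probe sets tested.

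The forkhead genes held no call by limma. Foxc2, of arch and somite mesenchyme, read 9.05 and 9.01 against 9.48 and 9.47, and Foxd1, of facial and kidney mesenchyme, read 9.77 and 9.80 against 10.17 and 10.15. In both the null values lay higher without overlap, at differences of 0.45 (SE 0.06, limma, adjusted p = 0.00676) and 0.38 (SE 0.06, limma, adjusted p = 0.0109), under the fold limit. Foxc1, the paralogue of Foxc2, gave -0.10 and 0.19 by its probe sets without a call. Tbx1, a T-box factor of the arch core and endoderm that is deleted in DiGeorge syndrome, read 7.02 and 7.15 against 7.14 and 7.17 and overlapped. Genes of somites and sclerotome, tissues in which Foxc2, Pax3 and Eya1 are also active, held 5 falls among 9, with a median of -0.64. Their mean level was 7.41 to 7.43 in the control and 6.70 to 6.73 in the null portions. Pax1 (-1.59), of the sclerotome, Myog (-1.49) and Myf5 (-0.72), of the myotome, and Meox2 (-0.71) fell furthest, although the other probe set of Pax1 gave -0.25 without a call. The part of these tissues in the arch values was not tested.

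**Figure D3:**
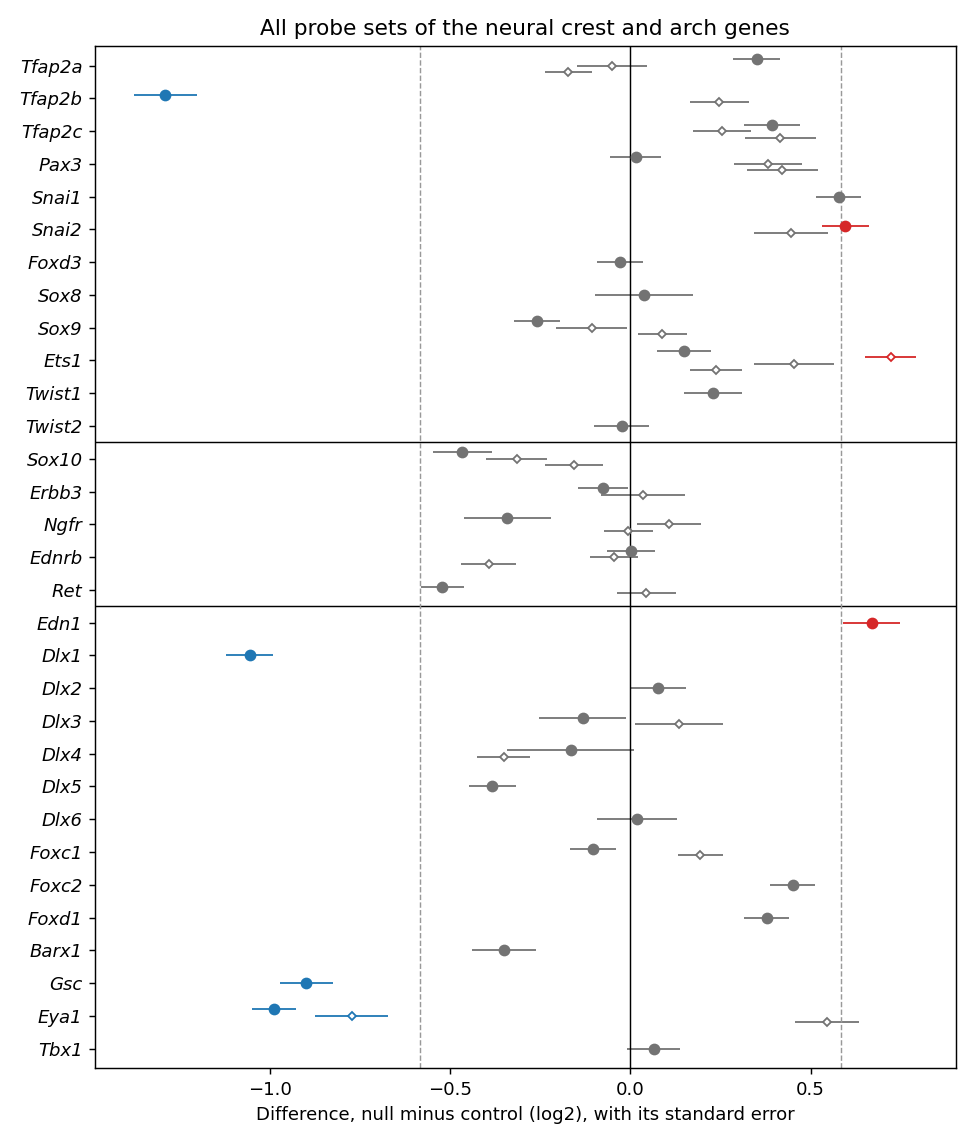
Difference between the pools (x axis, null minus control, log2) for all 57 probe sets of the 31 measured genes, with bars of 1 standard error; filled circles are the probe sets that stand for a gene, open diamonds the others, red marks rises, blue marks falls and grey no call, and dashed lines mark the 1.5-fold limit. Of 16 genes with several probe sets, 6 have all of them on one side of 0.

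Promoter sequences of RefSeq (GRCm38.p6), each from 250 bases before to 50 after the annotated start, were matched by symbol to 18 of the 32 genes, among them 4 of the 6 called genes. They are printed 5′ to 3′ on the strand of the gene because these 4 genes carry the calls: Edn1, which rose, at chr13:42301226-42301525 on the plus strand, and 3 that fell, Gsc at chr12:104473187-104473486 on the minus strand, Dlx1 at chr2:71529195-71529494 on the plus strand and Tfap2b at chr1:19211804-19212103 on the plus strand. Capitals mark matches to any of 4 motifs, searched on both strands: ACGTG, the core bound by HIF factors, TGANTCA of AP-1, GCCNNNGGC of AP-2 and CAGGTG of the Snail repressors.
Edn1: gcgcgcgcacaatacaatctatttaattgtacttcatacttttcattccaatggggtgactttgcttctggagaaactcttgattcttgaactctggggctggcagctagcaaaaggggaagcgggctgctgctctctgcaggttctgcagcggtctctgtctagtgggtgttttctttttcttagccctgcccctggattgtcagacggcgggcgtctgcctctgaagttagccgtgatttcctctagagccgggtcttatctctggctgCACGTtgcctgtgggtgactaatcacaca
Gsc: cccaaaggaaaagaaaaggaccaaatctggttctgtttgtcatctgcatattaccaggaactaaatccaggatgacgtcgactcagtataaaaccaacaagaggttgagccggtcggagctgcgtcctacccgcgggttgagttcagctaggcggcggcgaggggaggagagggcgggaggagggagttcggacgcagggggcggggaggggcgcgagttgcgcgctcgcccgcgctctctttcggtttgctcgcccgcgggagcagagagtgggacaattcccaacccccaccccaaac
Dlx1: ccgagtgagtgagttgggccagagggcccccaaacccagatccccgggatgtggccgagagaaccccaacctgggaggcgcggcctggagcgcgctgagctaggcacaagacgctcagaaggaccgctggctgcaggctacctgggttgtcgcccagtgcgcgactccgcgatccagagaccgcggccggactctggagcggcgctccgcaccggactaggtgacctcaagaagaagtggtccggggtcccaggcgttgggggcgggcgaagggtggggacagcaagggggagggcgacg
Tfap2b: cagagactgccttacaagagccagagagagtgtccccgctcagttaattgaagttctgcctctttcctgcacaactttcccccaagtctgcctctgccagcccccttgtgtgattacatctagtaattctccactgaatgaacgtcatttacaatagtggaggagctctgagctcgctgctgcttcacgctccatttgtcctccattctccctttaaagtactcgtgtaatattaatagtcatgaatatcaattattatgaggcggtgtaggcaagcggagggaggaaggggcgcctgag
One match was found in these windows, to the HIF core on the minus strand at bases 272 to 276 of the Edn1 window. That core stood in 8 of the 18 matched genes and in 19.6% of all 32851 promoters of the table. The AP-1 motif stood in 0 of the 18 and in 7.81% of all promoters, the AP-2 motif in 5 and in 16.6%, and the Snail motif in 3 and in 20.2%. Genes of the response to low oxygen, which HIF factors serve, were all higher in the null pool, with 12 rises among 12 and a median of 2.35, led by Adm (3.55), Pfkp (2.93), Ndrg1 (2.59) and Ddit4 (2.59). A match is a description of letters, and its use in these embryos was not tested.

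Other genes of the crest and the arches were listed from their textbook roles, with earlier results of these data known. They held 4 rises and 8 falls among 47 measured of 56, with a median of -0.01. Of all genes 11.6% were called, 3.58% as rises and 8.06% as falls. No share of these lists is read as particular to them. Of the border and specifier genes, 1 of 15 rose and 1 fell. Zic2, a zinc-finger gene of the dorsal neural tube, read 5.51 and 5.96 against 6.67 and 6.77, higher in the null pool, and rose by 0.99 (SE 0.16, limma, adjusted p = 0.0108). Cdh6, a cadherin of premigratory crest, read 8.25 and 8.25 against 7.37 and 7.36 and fell by 0.89 (adjusted p = 0.00125, limma), while its other probe set gave 0.01. Without null replicate 1 or null replicate 2, Zic2 missed the threshold (adjusted p = 0.0623 and 0.0785, limma).

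Among 12 measured genes of glia, enteric neurons and pigment cells 4 fell. Fabp7, a fatty acid binding protein of radial glia and Schwann cell precursors, read 11.09 and 11.01 against 9.95 and 9.96 and fell by 1.09 (adjusted p = 0.00101, limma). Nrg1, the neuregulin ligand of Erbb3, fell by 0.93, from 5.59 and 5.79 to 4.72 and 4.80. Hand2, a bHLH factor of the lower jaw, the heart and sympathetic neurons, fell by 0.72, from 9.80 and 9.84 to 9.20 and 9.00, while its other probe sets gave -0.43 and 0.18 without a call. Gdnf, the ligand of the Ret receptor complex, was measured, like Nrg1, by a probe set among the dimmest 40%. Gdnf fell by 0.60, from 5.71 and 5.59 to 5.18 and 4.91. That call was lost with control replicate 1 left out (-0.55, adjusted p = 0.0911), with control replicate 2 left out (-0.66, adjusted p = 0.0672) and with null replicate 2 left out (-0.47, adjusted p = 0.0567).

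Among 20 measured arch genes outside the set, 3 rose and 3 fell. Lhx8 read 8.17 and 8.27 in the control portions and 6.78 and 6.74 in the null portions and fell by 1.46 on the log2 scale (SE 0.07, limma, adjusted p = 0.000724), and Pitx1, of the lower jaw and hindlimb, fell by 0.79, with -0.34 and no call for its other probe set. Bmp4, the ligand of distal arch epithelium, read 9.07 and 9.03 against 10.08 and 10.05 and rose by 1.01 (SE 0.06, limma, adjusted p = 0.00106). The probe set that stands for Prrx1, a homeobox gene of arch and limb mesenchyme, rose by 1.51, but of its other 5 probe sets 3 fell, at differences of -1.47, -1.43 and -0.78, and the mean over all of them differed by -0.39. Of the surface ectoderm genes, whose cells line the arches and use AP-2 factors and Dlx3, 3 of 10 rose and 1 fell. Krt19 (2.11), Krt18 (0.87) and Krt8 (0.78), keratins of simple epithelia, rose and Krt14 (-1.01) fell, while Epcam and Cdh1 gave -0.07 and 0.11. Krt14 read 5.60 and 5.73 against 4.83 and 4.48, below the array medians. Its other probe sets gave -0.78, which was called, and -0.05, which was not.

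**Figure D4:**
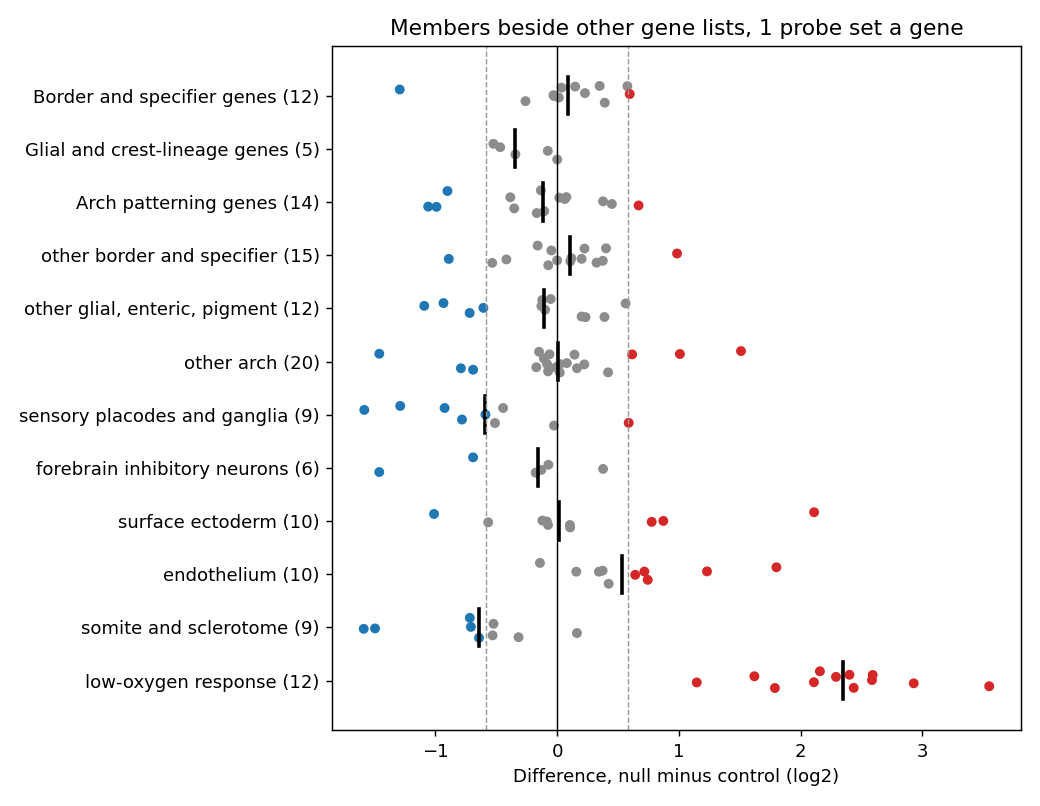
Difference between the pools (x axis, null minus control, log2) of each measured gene, 1 probe set a gene, for the 3 groups of crest and arch genes and 9 other lists (rows, with the number of genes); black bars are medians, red marks rises, blue marks falls and grey no call, and dashed lines mark the 1.5-fold limit. The crest and arch groups have medians of 0.09, -0.34 and -0.12, whereas the low-oxygen genes all lie above 1.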

How the data were processed

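The authors deposited 1 table of log2 expression values for 4 arrays, for which the submitters' processing notes name RMA and affy, an R package. Their versions and the probe mapping are not stated there. RMA equalises the distributions of the arrays at the level of single probes and so removes any difference in total RNA. The deposited probe set values were not fully equal, with medians of 6.03 and 6.03 in the control and 6.10 and 6.09 in the null portions. The values were used as deposited. Of 45101 probe sets 64 control sets were left out. The platform annotation gave 34945 of the 45037 tested probe sets 1 gene, 932 several (left unnamed) and 9160 none. Where a gene had several probe sets, the one of highest average level stood for it.

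Null minus control differences were fitted with limma 3.58.1 in R 4.3.3 (lmFit and eBayes, genotype as the only term) over all 45037 probe sets, with Benjamini-Hochberg adjustment over all of them. Calls needed an adjusted p under 0.05 and at least 1.5-fold. The fit was tested on simulated data. An exact permutation test of 2 arrays against 2 cannot give a two-sided p below 0.333 and was not used. The precision is limited by the number of arrays and by the pooling, since the arrays of a group share their RNA and no spread between embryos was measured. The text names Cop1, all members and, of each other list, up to 4 called genes with the largest difference; Cdh5, Hbb-bh1, Gad1, Gad2, Epcam, Cdh1 and the uncalled values beside them were named after their values were seen. The members, lists and tests were chosen with earlier results of these data known. Alternatives covered normalization, scaling, dim probe sets, the variance model, the replicate number as a block, each array left out, the mean over probe sets and the call limits.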

Additional observations from a re-analysis of the deposited data

How the results depend on the processing

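Of the 6 called crest and arch genes, Tfap2b, Dlx1, Eya1 and Gsc stayed lower in the null pool, beyond the fold limit, with any 1 array left out. Snai2 came under the limit without control replicate 2 (0.57) and without null replicate 2 (0.57). The other portion of the same pool remained each time, so this covers the spread between portions only. The member calls numbered 7 with quantile normalization applied once more, where all 18193 genes held 733 rises and 1375 falls. With poly-A spike centring they numbered 7, all falls. There Sox10 (-0.70), Ret (-0.76) and Dlx5 (-0.62) were called and Edn1 and Snai2 were not. In that setting all genes held 352 rises and 3215 falls, against 652 and 1467 in the fit reported above, and their median difference was -0.26. Centring on the median of all probe sets gave 1 rise and 5 falls, with Ret called (-0.59) and Snai2 not (0.53). Over all genes it gave 543 rises and 1835 falls. The poly-A medians were 7.40 and 7.63 in the control and 7.67 and 7.83 in the null portions, so that the pools differed about as much as the control portions did. The mean over all probe sets of a gene gave 3 calls, 1 rise (Edn1) and 2 falls (Dlx1 and Gsc). These genes have 1 probe set each, so that averaging left their values as they were. Tfap2b, Snai2 and Eya1, which have several, all lost their calls. Over all 18193 genes this setting gave 680 rises and 1103 falls. It also turned Prrx1 from 1.51 to -0.39. With the adjusted p alone 16 of 31 members, 27 of their 57 probe sets and 21 of 47 other crest and arch genes were called, against 33.9% of all genes. With a 2-fold limit these calls numbered 2, 2 and 4. The share of all genes at the 2-fold limit, and of all probe sets at either limit, was not computed. The median difference of the members was -0.26 with poly-A centring, -0.088 with median centring, 0.00077 with probe set means and from -0.055 to -0.0028 with 1 array left out. That of the specifiers was -0.14 with poly-A centring, 0.030 with median centring and 0.15 without the dimmest 40% of probe sets, and from 0.047 to 0.18 with 1 array left out. The glial median was -0.57 with poly-A centring and -0.15 with probe set means, and from -0.49 to -0.19 with 1 array left out. The arch median was -0.35 with poly-A centring, -0.18 with median centring and 0.0097 with probe set means, and from -0.16 to -0.052 with 1 array left out.

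The labels number the portions 1 and 2 in both pools, with nothing to pair them, and deviations of same-numbered portions correlated at 0.06 over probe sets. With the number as a replicate block the 6 member calls stayed 6, and the 12 calls among the other crest and arch genes became 11. Of 400 values of members over 13 alternatives, 372 kept their side of the limits, 12 lost a call, 16 gained one and 0 called values changed sign, while 31 values of genes without a call changed sign. Part of these totals was fixed in advance. Changing the limits, the variance model, the block or the dim probe sets left each difference as it was, so that no sign could change there. The adjusted p alone could only add calls, and the 2-fold limit could only remove them. Averaging left genes with 1 probe set as they were.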
